A study of Arabidopsis thaliana with 6 samples.

Results

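Transcript levels of 9 loci of the basic helix-loop-helix (bHLH) family were followed in seeds of Arabidopsis thaliana: the phytochrome-interacting factor genes PIF1, PIF3, PIF4, PIF5, PIF6 and PIF7, and their relatives HFR1, PIL1 and SPT. They were chosen by locus identifier, and all 9 were found among the 32884 loci of the deposited tables. RNA sequencing had been done on 3 libraries of wild-type Col-0 and 3 libraries of hda15-1, a mutant in the same accession whose histone deacetylase gene HDA15 is affected. Seeds of both genotypes had imbibed water for 1 h, been given far-red light for 5 min and stayed dark at 22 °C for 12 h. Nothing in the labels says that the libraries of a genotype were separate seed lots, so any p-value reflects the spread of these samples alone, which could be technical. Nor do they describe the lesion or say how many lines stand behind the mutant.

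PIF proteins are transcription factors that bind G-box DNA and accumulate in the dark. Light turns phytochrome into its active form, which binds PIF proteins and leads to their phosphorylation and breakdown, while far-red light returns phytochrome to the inactive form. PIF1 is the member best known for holding back germination in darkness, and the series title pairs it with HDA15. SPT, a relative that lacks a functional phytochrome-binding region, is also known as a regulator of seed germination.

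Most of the transcript listed for these genes belonged to a pair, PIF6 and PIF1, and not to PIF1 alone. PIF6 was listed above PIF1 in 6 of 6 libraries, a value that may include reads of an RNA on its opposite strand. PIL1, PIF3 and SPT followed at far lower levels, and PIF4, PIF7, HFR1 and PIF5 stayed below 1 FPKM (fragments relative to transcript length in kilobases and to library size). None of the 9 passed the test for a difference between genotypes. The smallest p among them belonged to SPT, whose values were higher in each hda15-1 library than in any wild-type library.

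Sequences are shown for the loci on which these results turn, from the RefSeq assembly TAIR10.1. For PIF6, an annotated long non-coding RNA, AT3G09745, runs across the gene on the opposite strand (chr3:22988627-22990967, plus strand; PIF6 is at chr3:22988547-22990709, minus strand). Its exons cover 84.5% of the exon bases of PIF6. RefSeq gives PIF6 4 transcripts, and only 2 of its exons are free of AT3G09745 exons over their whole length, each 66 bases long. They are printed on the PIF6 strand, with the exon present in 2 of the 4 transcripts in capitals and the exon present in all 4 in lower case.
PIF6 exon, chr3:22989726-22989791: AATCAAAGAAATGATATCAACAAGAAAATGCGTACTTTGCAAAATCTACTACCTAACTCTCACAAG
PIF6 exon, chr3:22989558-22989623: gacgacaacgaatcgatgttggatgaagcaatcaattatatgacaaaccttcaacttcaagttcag

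**Figure D1:**
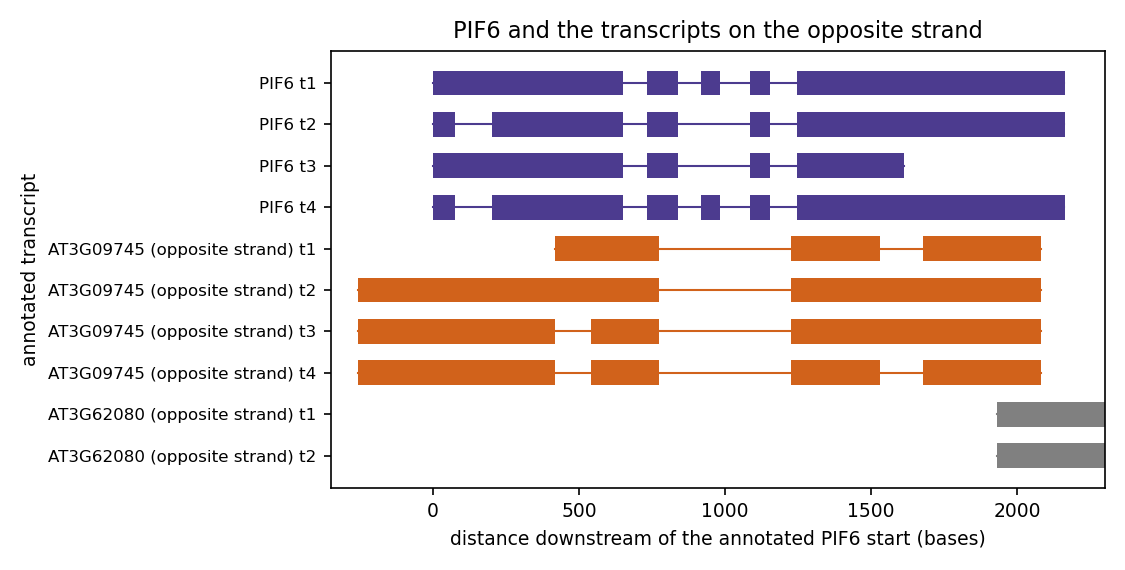
Annotated transcripts at the PIF6 locus, with distance downstream of the PIF6 start in bases on the horizontal axis and 1 transcript per row; boxes are exons and thin lines introns. The exons of AT3G09745, on the opposite strand, cover 84.5% of the exon bases of PIF6, and AT3G62080, also on that strand and shown only in part, reaches the PIF6 end.

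The 250 bases before the annotated starts are printed for the pair with the highest levels, PIF1 and PIF6, and for SPT and PIF5, which hold a G-box there. Capitals mark the G-box, CACGTG, the DNA element that PIF proteins bind. Each sequence runs 5′ to 3′ on the strand of its gene and ends 1 base before the start.
PIF1 upstream, chr2:8707010-8707259, minus strand: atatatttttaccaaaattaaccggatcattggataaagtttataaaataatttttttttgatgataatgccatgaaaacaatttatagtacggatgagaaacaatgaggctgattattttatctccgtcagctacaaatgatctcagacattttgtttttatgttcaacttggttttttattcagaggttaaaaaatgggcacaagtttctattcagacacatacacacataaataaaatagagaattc
PIF6 upstream, chr3:22990710-22990959, minus strand: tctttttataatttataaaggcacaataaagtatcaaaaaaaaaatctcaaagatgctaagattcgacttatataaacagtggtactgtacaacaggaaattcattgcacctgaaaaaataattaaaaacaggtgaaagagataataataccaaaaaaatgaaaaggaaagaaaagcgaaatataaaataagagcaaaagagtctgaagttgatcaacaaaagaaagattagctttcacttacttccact
SPT upstream, chr4:17413833-17414082, plus strand: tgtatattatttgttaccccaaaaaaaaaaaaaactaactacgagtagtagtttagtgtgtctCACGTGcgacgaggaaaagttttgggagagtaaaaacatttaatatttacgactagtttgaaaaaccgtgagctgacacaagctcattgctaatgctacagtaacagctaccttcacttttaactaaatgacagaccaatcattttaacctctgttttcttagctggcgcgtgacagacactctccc
PIF5 upstream, chr3:21830838-21831087, minus strand: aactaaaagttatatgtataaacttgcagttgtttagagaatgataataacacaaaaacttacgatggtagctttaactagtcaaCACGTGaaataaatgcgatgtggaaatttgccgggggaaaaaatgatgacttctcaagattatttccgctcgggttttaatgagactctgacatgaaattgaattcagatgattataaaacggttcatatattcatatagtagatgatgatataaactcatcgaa

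The G-box of SPT lay 187 to 182 bases before its start and that of PIF5 165 to 160 bases before. None of the other 7 windows held these letters. A G-box, searched on both strands, was present in 6.49% of 27443 protein-coding windows of the same length. The E-box variant CACATG, found in 11.1% of all windows, was in none of the 9. CATGCA, the core of the RY element known from seed genes, was in 8.43% of all windows and, among the 9, only in that of PIF7, where 2 matches overlapped each other. These matches describe the windows and show no binding.

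As a check of the labels, HDA15 itself was at 16.1, 12.97 and 14.8 FPKM in libraries 1, 2 and 3 of wild type. The mutant libraries 1, 2 and 3 had 0.338, 0.651 and 0.417 FPKM. The log2 fold change was -3.41 ± 0.18 (SE, n = 3 each; adjusted p = 3.79e-04, limma). Summed FPKM ran from 879239 in hda15-1 1 to 1159520 in hda15-1 3. Read totals were not given. The lowest values of genes with a single annotated transcript put 1 read in a transcript of 1 kb at 0.0836 to 0.114 FPKM, which is the basis of every approximate read number here. Of the 5 embryo marker genes all had a mean above 1 FPKM. CRC was listed at 0 in wild type 3 and hda15-1 2 and at 17232 to 33132 FPKM elsewhere. It was left out of the sum as a possible failed estimate, which was not tested. The other 4 summed to 35833 to 57234 FPKM in the wild-type group and 39713 to 65034 FPKM in hda15-1. Endosperm markers summed to 6658 to 10861 and 7317 to 11288 FPKM, with ZOU and RALFL8 at 0 in all libraries, and the 5 seed coat markers to 0.125 to 0.640 and 0.301 to 1.12 FPKM, with BAN and TT1 at 0. Green seedling markers summed to 350.9 to 455.9 FPKM in the wild-type group and 444.8 to 618.6 FPKM in hda15-1. Nearly all of that sum was RBCS1A, with a mean of 468.9 FPKM over the 6 libraries. RBCS3B averaged 2.53, LHCB1.1 0.569 and LHB1B1 0.277 FPKM. In the endosperm sum, EPR1 averaged 9058 FPKM and MAN7 19.1 FPKM. The part of these cell types in the values below was not tested. In whole seeds, fewer cells of a type and less RNA per cell cannot be told apart.

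**Figure D2:**
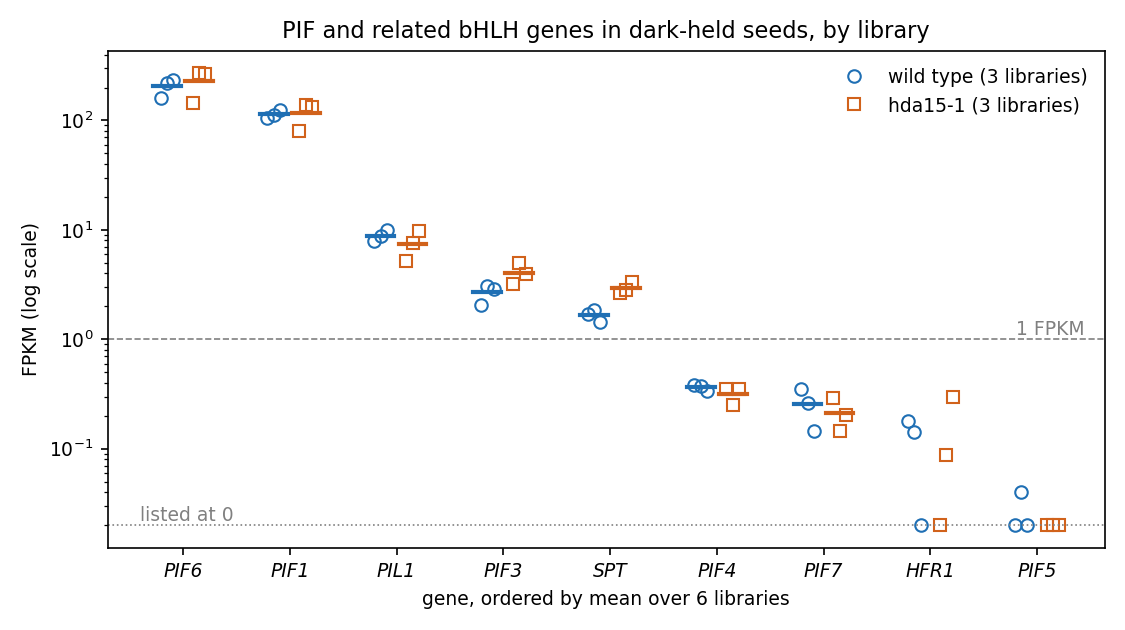
FPKM of each of the 9 genes on a log axis, 1 symbol per library (circles wild type, squares hda15-1), with bars at the mean of 3 libraries where no library was listed at 0; values listed at 0 stand on the dotted line. PIF6 and PIF1 sit at 80.5 FPKM or above in all 6 libraries, PIL1, PIF3 and SPT between 1.43 and 9.88 FPKM, and the other genes below 1 FPKM.

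PIF1 (AT2G20180, named PIL5 in RefSeq, chr2:8704024-8707009, minus strand) codes for the repressor of dark germination. It was at 104.7, 112.7 and 124.7 FPKM in libraries 1, 2 and 3 of wild type. The mutant libraries 1, 2 and 3 had 80.5, 138.2 and 132.2 FPKM. The mutant thus held both the lowest and the highest values, and the groups overlapped. Means were 114.0 ± 10.05 FPKM in the wild-type group and 117.0 ± 31.7 FPKM in hda15-1 (SD, n = 3 each). The log2 fold change was 0.00, with a 95% interval from -0.56 to 0.56, and an adjusted p of 1.000 in limma. The interval is not adjusted for the number of genes, and these libraries do not exclude a difference inside it. Without hda15-1 1, the low library, the log2 fold change was 0.25 (adjusted p = 0.677, limma). PIF1 shares 5.72% of its exon bases with AT2G20170 on the opposite strand, which did not exceed 0.0588 FPKM in any library.

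By mean over the 6 libraries PIF1 stood at rank 1182 of the 32884 loci. Among 141 measured loci annotated as bHLH or named here, it was at rank 4 or 5 in each library. MEE8 was the highest of the 141, with a mean of 514.3 FPKM, followed by PIF6 with 216.2, ILR3 with 129.03, PIF1 with 115.5 and AT1G68240 with 113.2 FPKM. MEE8, ILR3 and AT1G68240 are named after their values were seen. PIF1 and PIF6 together made up 18.8% of the summed mean FPKM of all 141.

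PIF6 (AT3G62090, named PIL2 in RefSeq) is a bHLH gene known from developing seeds, where it has been linked to dormancy. It was at 162.0, 220.2 and 232.3 FPKM in the wild-type libraries, against 145.1, 269.4 and 268.3 FPKM in the mutant ones. The lowest value was again that of hda15-1 1, and the groups overlapped. The log2 fold change was 0.11, with a 95% interval from -0.56 to 0.78, and an adjusted p of 1.000 in limma. Within each library PIF6 exceeded PIF1 by a ratio of 1.55, 1.95 and 1.86 in wild type and of 1.80, 1.95 and 2.03 in hda15-1. The test found no genotype difference in this ratio (difference 0.139, exact permutation p = 0.5, two-sided; adjusted p = 0.75 over 15 such quantities, for which 3 libraries against 3 allow no p under 0.1).

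The part of the RNA on the other strand in the PIF6 value, and so in the order of PIF6 and PIF1, was not tested. AT3G09745, named here because of its overlap with PIF6, was at 137.2, 124.8 and 116.8 FPKM in the wild-type libraries, against 58.4, 139.7 and 225.9 FPKM in the mutant ones. It thus ran at 0.403 to 0.847 of the PIF6 value of the same library, with both extremes of its level in hda15-1. Its log2 fold change was -0.04, with a 95% interval from -1.03 to 0.96 (adjusted p = 1.000, limma). Whether counting used strand is not given in the sources used here, so the contributions of the PIF6 and AT3G09745 strands cannot be told apart. PIF6 also shares 12.8% of its exon bases with AT3G62080, which was at 3.25 to 6.37 FPKM.

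**Figure D3:**
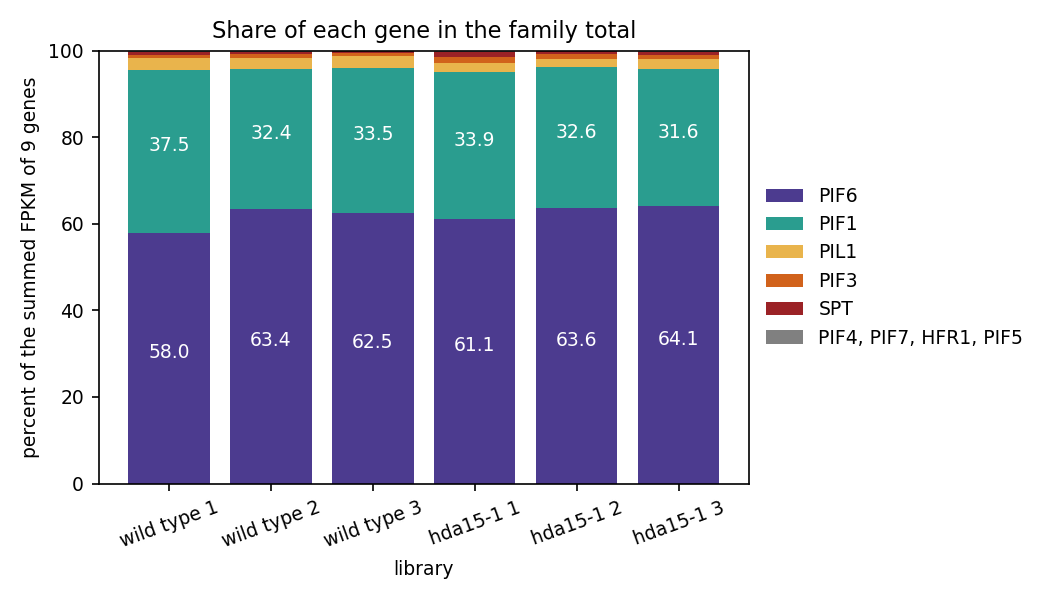
Percent of the summed FPKM of the 9 genes taken by each gene, 1 bar per library, with the percents of PIF6 and PIF1 written in the bars. PIF6 takes 58.0 to 64.1 percent and PIF1 31.6 to 37.5 percent; PIF4, PIF7, HFR1 and PIF5 are too low to see.

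In shares of the summed FPKM of the 9 genes, PIF6 and PIF1 together held 95.1% to 96.3% in every library. PIF1 alone held 37.5%, 32.4% and 33.5% in wild type and 33.9%, 32.6% and 31.6% in hda15-1. The groups overlapped, and the mean share was 34.5% ± 2.66 in wild type and 32.7% ± 1.16 in hda15-1 (SD, n = 3 each; exact permutation p = 0.5, two-sided; adjusted p = 0.75). With PIF6 left out of the sum, a choice made after its values were seen, PIF1 held 87.3% to 89.7%. It was then the leading gene in 6 of 6 libraries, as the next gene, PIL1, lay 12.6 to 18.1 times lower than PIF1.

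PIL1 (AT2G46970, chr2:19295431-19297858, minus strand) is a PIF relative best known for its rapid rise in plant shade, itself driven by PIF proteins. It was at 7.93, 8.85 and 9.88 FPKM in the wild-type libraries, against 5.19, 7.64 and 9.67 FPKM in the mutant ones. Both the lowest and the second highest value came from the mutant. The log2 fold change was -0.25, with a 95% interval from -0.77 to 0.27 (adjusted p = 1.000, limma). These levels correspond to about 84 to 162 reads per library. Relative to PIL1, PIF1 was at 12.9 ± 0.313 in wild type and 15.8 ± 2.22 in hda15-1 (SD, n = 3 each), groups that did not overlap (exact permutation p = 0.1, the smallest possible; adjusted p = 0.375).

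PIF3 (AT1G09530, chr1:3075768-3079654, plus strand), a factor known for repressing chlorophyll synthesis and promoting stem growth in dark-grown seedlings, was at 2.05, 3.10 and 2.88 FPKM in wild type. In hda15-1 it was at 3.21, 4.93 and 3.92 FPKM, each above every wild-type value. The closest values of the groups, 3.10 and 3.21 FPKM, differed little. Its log2 fold change was 0.45 ± 0.21 (SE), with a 95% interval from -0.03 to 0.93, and did not pass the test (adjusted p = 1.000, limma). At about 45 to 111 reads per library, counting error is part of this spread. Per 1000000 summed FPKM, PIF3 was at 2.19, 3.40 and 2.79 in wild type and at 3.65, 4.62 and 3.38 in hda15-1. The groups then overlapped only narrowly, by 3.40 in wild type 2 against 3.38 in hda15-1 3. The summed FPKM includes the embryo marker CRC, with the values of 0 given above. This scale therefore cannot decide whether the PIF3 groups are separated.

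SPT (AT4G36930, chr4:17414083-17416386, plus strand), whose upstream window is printed above with its G-box, was at 1.71, 1.84 and 1.43 FPKM in wild type. In hda15-1 it was at 2.66, 2.80 and 3.34 FPKM. All 3 mutant values lay above all 3 wild-type values, with a gap wider than the range inside either group. Means were 1.66 ± 0.213 FPKM and 2.93 ± 0.358 FPKM (SD, n = 3 each). The log2 fold change was 0.56 ± 0.18 (SE), with a 95% interval from 0.15 to 0.97 and an unadjusted p of 0.0133. Adjusted over all genes tested, p was 0.826 in limma, so SPT did not pass. The separation remained per 1000000 summed FPKM, at 1.83, 2.02 and 1.38 in wild type and 3.03, 2.63 and 2.88 in hda15-1. SPT had about 27 to 50 reads per library, and the nearest libraries had about 36 (wild type 2) and 45 (hda15-1 2). Counting error is thus part of the SPT spread as well.

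Of the 5 genes that reached a mean of 1 FPKM and were tested, 0 passed an adjusted p of 0.05, as did 0.219% of the 15045 genes tested, and 1, SPT, had an unadjusted p under 0.05, as did 4.28%. With no filter on the mean all 9 were tested and 0 passed. Among the 9, PIF3 and SPT had higher values in every hda15-1 library than in any wild-type library, a separation held by 5.78% of all genes tested, while 3.43% were separated in the lower direction. The choice of genes was made with these results known. Therefore nothing about the family as a group is read from these counts.

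**Figure D4:**
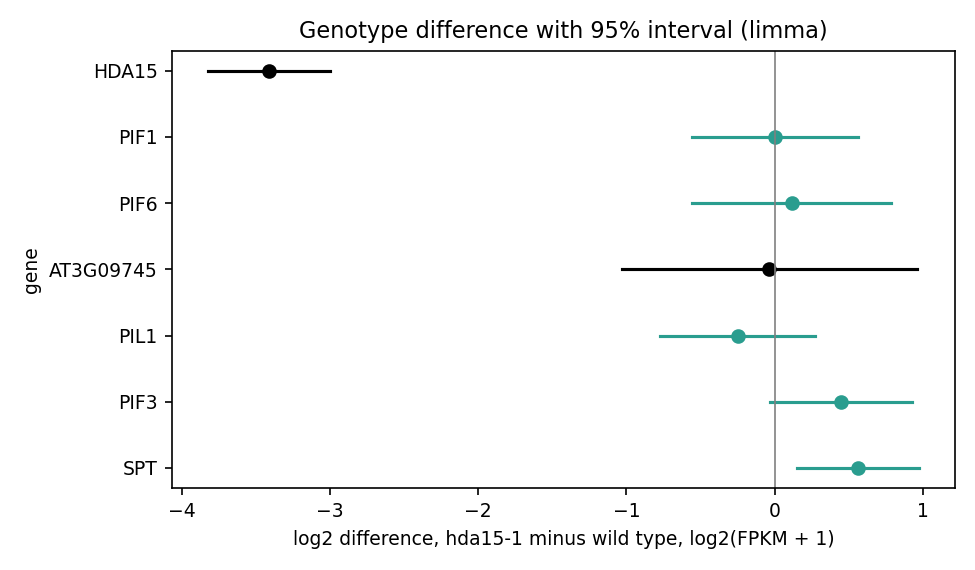
Log2 difference between hda15-1 and wild type on the log2(FPKM + 1) scale (points) with its 95% interval (lines) from limma, for HDA15, the 5 tested PIF and related genes (colour) and AT3G09745. HDA15 is at -3.41; the intervals of PIF1, PIF6, PIL1 and PIF3 include 0, and that of SPT, from 0.15 to 0.97, is not adjusted for the number of genes.

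PIF4, PIF7, HFR1 and PIF5 had the fewest reads. PIF4 (AT2G43010, chr2:17886101-17889087, plus strand), a factor of warmth-induced growth, was at 0.384, 0.372 and 0.335 FPKM in the wild-type libraries, against 0.351, 0.253 and 0.348 FPKM in the mutant ones. That amounts to about 45 reads over the 6 libraries. PIF7 (AT5G61270, chr5:24638491-24640765, minus strand), a factor of shade growth, was at 0.352, 0.264 and 0.147 FPKM in the wild-type libraries, against 0.292, 0.145 and 0.203 FPKM in the mutant ones, about 27 reads in all. The values of either gene overlapped between genotypes.

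HFR1 (AT1G02340, chr1:465616-467880, minus strand) codes for an atypical bHLH protein that pairs with PIF proteins and keeps them from DNA. It was listed at 0.179, 0.142 and 0 FPKM in the wild-type libraries, against 0, 0.0876 and 0.295 FPKM in the mutant ones, about 10 reads in all. PIF5 (AT3G59060, named PIL6 in RefSeq, chr3:21827905-21830837, minus strand), known from stem growth and leaf ageing, was listed at 0.0405 FPKM in wild type 2 and at 0 in the other 5 libraries. This corresponds to about 1 read. Its upstream window is the other one with a G-box. In the no-filter fit the adjusted p of these 4 low genes was 1.000 in limma. No difference was detected in them, and how large a difference these few reads could show was not measured.

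Ordered by mean FPKM, a scale that takes length into account, the genes ran PIF6, PIF1, PIL1, PIF3, SPT, PIF4, PIF7, HFR1 and PIF5. The ranges over 6 libraries did not overlap between PIF6 and PIF1 (lowest 145.1 against highest 138.2 FPKM), between PIF1 and PIL1, between PIL1 and PIF3 (5.19 against 4.93 FPKM) or between SPT and PIF4. Those of PIF3 and SPT overlapped, although PIF3 was the higher in 6 of 6 libraries. PIF4, PIF7, HFR1 and PIF5 overlapped each with its neighbour in the order. Set against PIF3, PIF1 was at 43.5 ± 7.33 times PIF3 in wild type and 29.0 ± 4.42 times in hda15-1 (SD, n = 3 each; exact permutation p = 0.1, the smallest possible; adjusted p = 0.375).

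The genes whose pattern over the 6 libraries was most like that of PIF1 were sought among 7762 genes that averaged 10 FPKM or more and had no library at 0. By Pearson's r of log2(FPKM + 1) the closest 5 were GC5 and ATGRIP, which code for golgins of the Golgi apparatus, and AT3G44798, AT2G23120 and AT1G26218, with r between 0.989 and 0.994. PIF6 had r = 0.947 with PIF1, and PIL1 r = 0.801. AT3G09745 had r = 0.744 with PIF6, the gene it overlaps, and r = 0.832 with PIF1. For SPT the closest were PAI1, of tryptophan synthesis, HA2, a plasma membrane proton pump gene, AT4G03925, AT2G45810 and AT1G69760, with r between 0.960 and 0.974. All points share the same 6 libraries and their scaling, so these values only describe the pattern.

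Close relatives outside the 9 were mostly low. Of 12 such bHLH loci 2 reached a mean of 1 FPKM and were tested, and 0 passed. ALC, the nearest relative of SPT and a factor of fruit opening, was at 2.16, 1.51 and 0.794 FPKM in the wild-type libraries, against 2.67, 2.35 and 2.55 FPKM in the mutant ones. All mutant values again stood above the wild-type ones (log2 fold change 0.54, 95% interval -0.01 to 1.08, adjusted p = 1.000, limma). PAR1, which codes for a small bHLH protein without DNA binding that restrains PIF proteins, was at 4.54 ± 2.83 and 3.95 ± 1.15 FPKM (SD, n = 3 each). PAR2, its near copy, lay below the minimum mean and is named after its values were seen. It was at 0.274, 0.214 and 0.380 FPKM in the wild-type libraries, against 1.003, 1.598 and 1.073 FPKM in the mutant ones (adjusted p = 0.177 in limma without the filter). UNE10 and IND were listed at 0 in all 6 libraries. The remaining relatives, also below the minimum mean, ran from 0.0146 FPKM for BHLH127 to 0.819 FPKM for BHLH023 on average.

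Phytochromes and their partners showed 0 of 9 tested genes past the threshold, with a median log2 fold change of 0.06 against 0.02 for all genes tested. With libraries set to the same summed FPKM the list median was -0.02 and that of all genes -0.06, a shift that applies to the other list medians on that scale as well. PHYA, the photoreceptor for far-red light, was the most abundant gene of the list at 859.7 ± 120.0 FPKM in the wild-type group and 923.0 ± 94.2 FPKM in hda15-1. PHYE was at 15.2 ± 1.95 and 15.9 ± 0.738 FPKM, and HMR, needed for PIF breakdown in light, at 16.5 ± 0.0882 and 18.9 ± 4.76 FPKM (SD, n = 3 each). The adjusted p of all 9 was 1.000 in limma.

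Genes that act on the stability of PIF proteins also gave 0 of 13 tested past the threshold, with a median log2 fold change of -0.00, or -0.10 at the same summed FPKM. The list has 15 loci. It comprises the COP1, SPA and CUL4 ligase genes, DET1, the LRB ligase genes, the kinase gene BIN2, 4 further kinase genes and the phosphatase gene TOPP4. Those with the smallest p were AT2G25760, a PPK kinase gene, at 19.0 ± 3.31 and 21.7 ± 1.21 FPKM, DET1 at 26.6 ± 3.39 and 29.9 ± 1.703 FPKM, and TOPP4 at 9.24 ± 2.53 and 11.1 ± 2.88 FPKM, wild type before hda15-1 (SD, n = 3 each). Their adjusted p was 1.000 in limma. DET1 did not overlap between genotypes, though narrowly (28.7 FPKM in wild type 3 against 28.8 FPKM in hda15-1 3), while AT2G25760 and TOPP4 did. SPA3 and SPA4 lay below the minimum mean and are named after their values were seen. SPA3 was at 0.860, 0.908 and 0.893 FPKM in the wild-type libraries, against 0.630, 0.743 and 0.540 FPKM in the mutant ones. Each mutant value of SPA3 lay below every wild-type value (adjusted p = 0.966 in limma without the filter). SPA4 was at 0.895 ± 0.313 and 0.728 ± 0.431 FPKM (SD, n = 3 each), and its groups overlapped.

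Among genes for proteins that bind PIF factors or act beside them, 0 of 6 tested passed, while all 6 had a log2 fold change above 0, as did 8191 of the 15045 genes tested, with a median of 0.39. All 6 also stayed above 0 after upper quartile scaling or at the same summed FPKM, with medians of 0.32 and 0.29. RGL2, a DELLA gene whose product holds back germination, was at 80.7, 69.5 and 81.2 FPKM in the wild-type libraries, against 109.3, 103.8 and 103.2 FPKM in the mutant ones. Its groups did not overlap (log2 fold change 0.45, 95% interval 0.06 to 0.84, adjusted p = 0.993, limma). GAI, another DELLA gene, was at 210.6 ± 25.4 and 304.6 ± 84.3 FPKM, and HYH, a relative of the light factor HY5, at 1.02 ± 0.669 and 1.65 ± 0.388 FPKM (SD, n = 3 each). Adjusted p of both was 1.000 in limma. GAI did not overlap between genotypes (highest wild-type value 230.3, lowest mutant value 247.6 FPKM), while HYH did. The list has 8 loci, and the other 2, HY5 and RGL1, lay below the minimum mean and are named after their values were seen. HY5, a light factor, was lower on average in the mutant, at 0.506 ± 0.107 and 0.398 ± 0.132 FPKM (SD, n = 3 each; log2 fold change -0.11 and adjusted p = 1.000 in limma without the filter). RGL1, a DELLA gene, was at 0.102, 0.125 and 0.0414 FPKM in the wild-type libraries, against 0.474, 0.633 and 0.444 FPKM in the mutant ones. Its groups did not overlap, and its adjusted p without the filter was 0.171 in limma.

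Downstream of PIF1, 0 of 10 tested genes passed, with a median log2 fold change of 0.11, or 0.02 at the same summed FPKM. The list holds 13 loci, and the other 3, below the minimum mean, are described after the tested ones. CYP707A2, a gene of abscisic acid breakdown, was at 3.74 ± 0.899 and 5.82 ± 1.304 FPKM, GA2OX2, which inactivates gibberellin, at 20.3 ± 1.67 and 27.2 ± 5.26 FPKM, and DAG1, a repressor of germination, at 2.41 ± 0.432 and 2.99 ± 0.418 FPKM (SD, n = 3 each). GA2OX2 did not overlap between genotypes (highest wild-type value 21.3, lowest mutant value 23.9 FPKM), while CYP707A2 and DAG1 did. SOM, a germination repressor gene that PIF1 activates and that is named after its values were seen, was at 411.1, 580.1 and 624.1 FPKM in the wild-type libraries, against 729.5, 524.6 and 370.2 FPKM in the mutant ones. The library lowest in PIF1, hda15-1 1, was thus the highest in SOM. This library also had the lowest summed FPKM and the lowest PIF6 and PIL1. It was the highest in PHYB, at 67.5 FPKM, and in ABI3, a further gene of this list, at 243.2 FPKM. A relation between PIF1 and SOM was not tested. Adjusted p of CYP707A2, GA2OX2, DAG1 and SOM was 1.000 in limma.

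The 3 downstream loci below the minimum mean are named after their values were seen. All had higher values in every mutant library than in any wild-type library. Of the 15045 genes tested, which leave these loci out, 5.78% were separated in that direction. The share among loci below the minimum mean was not computed, so nothing about the list is read from this count. GA3OX1, which codes for an enzyme that makes active gibberellin, was at 0.227, 0.178 and 0.0596 FPKM in the wild-type libraries, against 1.95, 1.85 and 0.906 FPKM in the mutant ones. GA3OX2, a second gene of that enzyme, had 0.640, 0.928 and 0.546 FPKM in the mutant libraries and a listed 0 in each library of wild type. PORC, of chlorophyll synthesis, was at 0.0666, 0.262 and 0.166 FPKM and at 0.667, 0.399 and 0.368 FPKM, in the same order. Without the filter their adjusted p in limma was 0.152 for GA3OX1, 0.0569 for GA3OX2 and 0.679 for PORC, so none passed. GA3OX2 came nearest to the threshold.

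**Figure D5:**
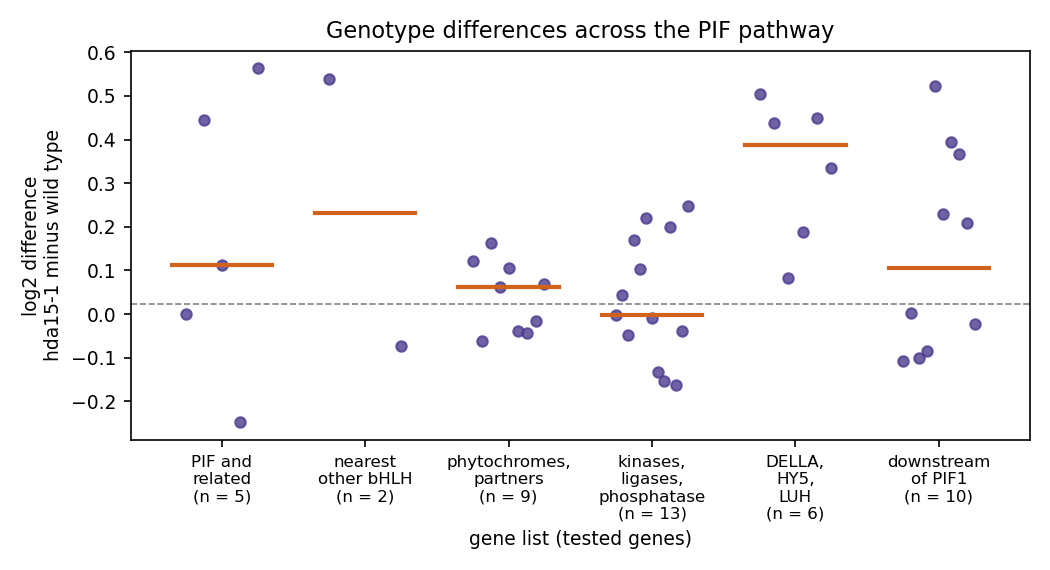
Log2 difference between hda15-1 and wild type for each tested gene (points) of 6 gene lists, with the list median (bar) and the median of all genes tested, 0.02 (dashed line). No point belongs to a gene past the threshold; all 6 tested genes of the list with DELLA, HYH and LUH lie above 0, as do 8191 of all 15045 genes tested. Loci below the minimum mean, HY5 with a log2 fold change of -0.11 among them, are not plotted.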

How the data were processed

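Each library has its own deposited table of FPKM values, per the file headers. Bowtie 0.12.2, Cufflinks, Cuffdiff and the build TAIR10 are named in the submitters' processing notes. Their settings, the annotation and the handling of strand are not given in the sources. The tables hold no coordinates. Positions, exons, names and sequences came from RefSeq TAIR10.1, joined by locus identifier (32538 of 32884 matched).

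The model was fitted in R 4.3.3 with limma 3.58.1 (trended empirical Bayes, genotype as the only term) to log2(FPKM + 1) of the 15045 genes averaging 1 FPKM or more. Two-sided p-values received a Benjamini-Hochberg adjustment across these genes, and 0.05 was the threshold. This scale understates changes of low genes. On simulated data the fit recovered 11 of 50 changes of 2-fold and 46 of 50 of 4-fold, with 7 false calls. These folds were set on FPKM + 1, so for low genes they stand for larger changes in FPKM. Most changes of 2-fold were thus missed there. Shares and ratios were compared by exact permutation tests (scipy 1.17.1).

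An exact 0 can be a failed estimate. Approximate reads are FPKM times the median RefSeq transcript length, divided by the value of 1 read per kb found from single-transcript genes of 1000 to 4000 bases.

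The 9 genes and the lists were chosen with earlier results of these data known. Rules set the naming of HDA15, the 9 genes and the 5 genes most like PIF1 and SPT. They also covered up to 3 tested genes of each pathway list with the smallest p. Other genes were named outside these rules, for overlap with PIF1 or PIF6, for levels at the ends of a list, or after their values were seen. Marker lists are given as sums, with single genes named beside them. Alternatives covered the pseudocount, filter, scaling, variance model, replicate block and each library left out.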

Additional observations from a re-analysis of the deposited data

How the results depend on the processing

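No alternative brought a tested gene of the 9 past the threshold. All 9 were tested only without the filter, 3 when genes had to average 5 FPKM, and 5 in the other alternatives. SPT kept a log2 fold change of 0.49 to 0.79 with adjusted p-values of 0.274 to 1.000 in limma, PIF3 of 0.32 to 0.57, and HDA15 of -4.73 to -3.28 with the call kept. PIF1, at 0.00, was at -0.073 with libraries scaled to the same upper quartile and at -0.10 with the same summed FPKM. Leaving out 1 library gave -0.14 to 0.25 for PIF1, -0.046 to 0.41 for PIF6, 0.49 to 0.61 for SPT and -3.50 to -3.34 for HDA15, none changing a call. The genotype difference in the PIF1 share, -1.76 percentage points, kept its sign in all 10 alternatives, at -2.79 to -0.27. The replicate block, counted among these, leaves this difference unchanged by design.

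The number of genes past the threshold, 33, was 16 when genes had to average 5 FPKM, which left fewer to test, and 21 with the same summed FPKM. It was 11 to 36 without 1 library, lowest without hda15-1 2, with 12 without wild type 2, 13 without hda15-1 3 and 14 without wild type 3. With both libraries numbered 1 left out, an alternative added after the data were seen, it was 85. The cause was not tested.

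With the replicate number as a block 16 genes passed. In this balanced design the block cannot change the PIF1 log2 fold change, 0.00, or the difference in its share, -1.76 percentage points. Deviations from the group means correlated across genes at r = -0.08, -0.11 and -0.16 between libraries of the same number. The deviations cancel out within each group, so these values cannot decide whether libraries of the same number shared a batch. No library correlated best with its own number.

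Depth limits PIF4, PIF7, HFR1 and PIF5, at about 45, 27, 10 and 1 reads over all libraries.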
